A study of Rattus norvegicus with 24 samples.

Results

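B3gat2 (ENSRNOG00000046852) and Smap1 (ENSRNOG00000049127) are adjacent genes on chromosome 9 of the rat build Rnor_5.0. They make up 2 of the 26404 genes in the deposited tables. Both were selected on measured values in these same pups, so their levels, their difference between conditions and their likeness to each other are given as descriptions, with no test. The tissue was the right cerebral cortex of 24 Sprague Dawley pups, taken within hours of birth on postnatal day 0, and its RNA was sequenced. Of these, 12 pups were born to dams that had carried a saline-filled pump since surgery under anesthesia on gestational day 18 (saline pump), and 12 were born to dams that labored spontaneously without surgery (spontaneous labor). Each condition held 3 litters, with 2 male and 2 female pups per litter. The litter was inferred from a number in each pup's identifier, taken to name the dam. Pups of a litter are thus taken to share a dam. Sprague Dawley rats are an outbred stock, and littermates are not genetically identical.

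B3gat2 encodes a glucuronyltransferase of the Golgi that adds glucuronic acid to glycan chains, a step in making the HNK-1 carbohydrate epitope that neural cell adhesion molecules carry in the developing brain. Smap1 encodes a GTPase-activating protein for the small GTPase Arf6. It binds clathrin and acts in clathrin-dependent endocytosis. The products of the 2 genes belong to different pathways.

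On Rnor_5.0, the build of the files, B3gat2 was listed on the plus strand of chromosome 9 from 28816204 to 28899282, with 5 exon intervals and an exonic length of 1996 bases. Smap1 was listed on the minus strand from 28900107 to 28991030, with 10 exon intervals and an exonic length of 1323 bases. The genes lie tail to tail with 824 bases between them, and their starts are 174826 bases apart, at the outer ends of the pair. A further gene of 99 bases was listed inside the span of B3gat2 and had at most 3 counts in any pup.

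The promoters of the 2 genes are shown because the members moved together while their starts lie far apart. They are RefSeq sequences of build GRCr8 and run from 250 bases before to 50 bases after the start, at chr9:33663232-33663531 on the plus strand for B3gat2 and chr9:33838382-33838681 on the minus strand for Smap1. Capitals mark the GC box GGGCGG and its reverse complement CCGCCC.
B3gat2: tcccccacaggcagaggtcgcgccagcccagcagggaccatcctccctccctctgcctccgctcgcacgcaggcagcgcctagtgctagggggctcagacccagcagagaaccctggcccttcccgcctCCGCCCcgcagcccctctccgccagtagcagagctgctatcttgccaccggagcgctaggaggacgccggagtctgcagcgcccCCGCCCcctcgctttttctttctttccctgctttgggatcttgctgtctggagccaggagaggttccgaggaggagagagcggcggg
Smap1: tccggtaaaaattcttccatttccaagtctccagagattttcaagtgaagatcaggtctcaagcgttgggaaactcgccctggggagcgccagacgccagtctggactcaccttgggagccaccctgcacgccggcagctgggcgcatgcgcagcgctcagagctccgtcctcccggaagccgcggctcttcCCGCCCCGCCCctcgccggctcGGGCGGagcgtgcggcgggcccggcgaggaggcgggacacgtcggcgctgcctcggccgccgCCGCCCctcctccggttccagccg
The B3gat2 promoter held 2 GC boxes and the Smap1 promoter held 4, of which 2 overlap by a base. At least 1 such box was found in 33.1% of the 33469 rat promoters of 300 bases, and at least 2 were found in 17% of them. The GC content was 68.0% for B3gat2 and 69.3% for Smap1, beside a median of 51.7% over all promoters. The letters TATAAA were on neither strand of either promoter, and 14.2% of all promoters hold them.

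Gene counts summed to 12170547 to 19260066 per pup, and no pair of libraries agreed within sampling noise (lowest chi-square 2.32 per degree of freedom). Gene symbols were in hand for 967 identifiers, those that the study's own sheets pair with a symbol, and of 33 markers of cortical and other cell types sought there, 5 were found. Those sheets were selected by p between the conditions, so which markers were found depended on these data. None of the 8 markers of cortical excitatory neurons was among the 5, so the labelled tissue was not checked against its defining markers. The 5 that were found, Aqp4 of astrocytes, Cldn5 of endothelium and Alas2, Hba-a3 and Ahsp of blood, had medians of 122, 61.7, 10.9, 13.3 and 2.11 CPM (counts scaled to the library total). In whole cortex, fewer cells of a type and less RNA per cell cannot be told apart.

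Both genes were measured well above the filter of more than 1 CPM in at least 4 samples. Over the 24 pups, the median level was 56.9 CPM for B3gat2 and 73.9 CPM for Smap1. Per length, Smap1 was the higher of the pair in each pup. Its RPKM (CPM per kb of exon) ran from 28.2 to 67.4 with a median of 55.8, whereas that of B3gat2 ran from 14.8 to 33.5 with a median of 28.5.

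In saline pump litter 1, B3gat2 had 65.4 and 55.4 CPM in the males and 62.2 and 66.9 in the females. In saline pump litter 2, the males had 60.9 and 53.1 CPM of B3gat2 and the females 66.8 and 65.9. Saline pump litter 3 gave 52.6 and 52.1 CPM in its males and 54.3 and 58.5 in its females. All 12 saline pump pups thus lay in a single range, from 52.1 to 66.9 CPM. In spontaneous labor litter 1, the males had 54.5 and 63.2 CPM of B3gat2 and female 1 had 60.3, but female 2 had 30.5. Spontaneous labor litter 2 gave 58.4, 60.4, 55.3 and 64.6 CPM. In spontaneous labor litter 3, the males had 29.9 and 29.4 CPM and female 1 had 30.6, whereas female 2 had 54.3. Thus 4 pups of 2 spontaneous labor litters were low, and the other 20 pups overlapped from litter to litter.

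Smap1, the Arf6 GTPase-activating protein, singled out the same pups. In the saline pump litters it had 79.8, 73.8, 77.6 and 80.5 CPM (litter 1), 73.9, 70.9, 77.9 and 81.7 CPM (litter 2) and 70.6, 78.9, 71.8 and 80.1 CPM (litter 3). Spontaneous labor litter 1 gave 82.0 and 89.2 CPM in the males, 79.2 in female 1 and 42.9 in female 2. The saline pump range of 70.6 to 81.7 CPM therefore held 1 of these 4 pups, with 2 above it and 1 far below. In spontaneous labor litter 2 the values of Smap1 were 73.1, 73.4, 75.8 and 73.1 CPM. In spontaneous labor litter 3 they were 37.4 and 37.9 in the males, 39.8 in female 1 and 69.7 in female 2. The low pups were again female 2 of litter 1 and both males and female 1 of litter 3, so that 2 males and 2 females were low.

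**Figure D1:**
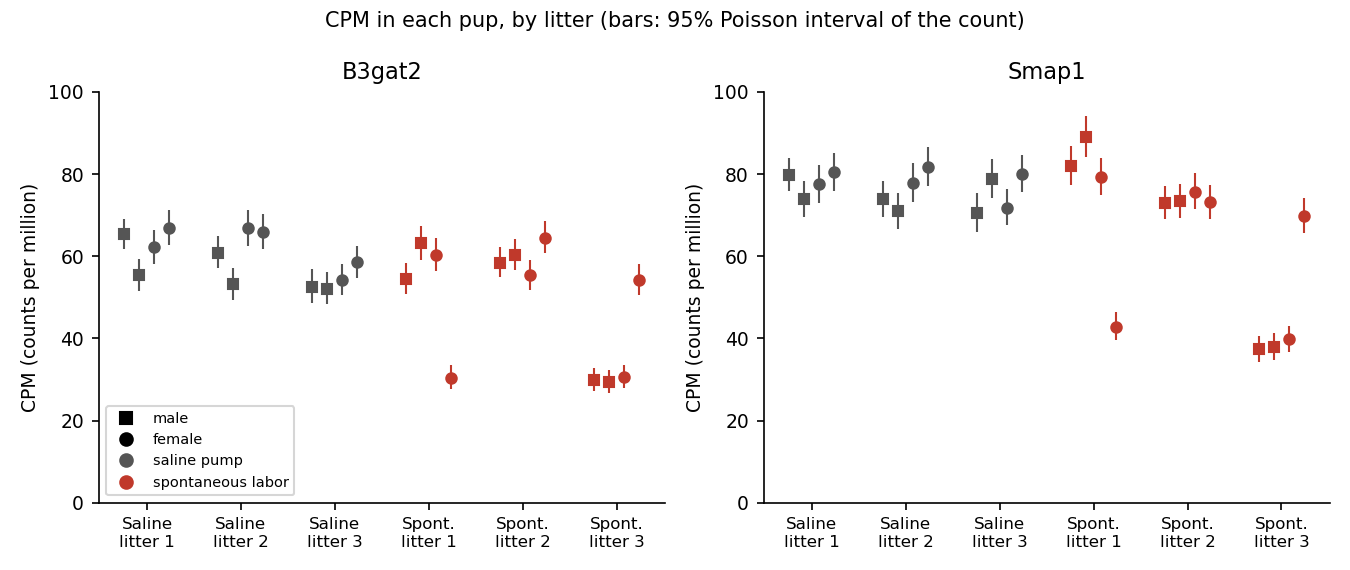
CPM of B3gat2 (left) and Smap1 (right) in each of 24 pups, by litter, with squares for males, circles for females and bars for the 95% Poisson interval of the count. One pup of spontaneous labor litter 1 and 3 pups of litter 3 lie between 29.4 and 30.6 CPM of B3gat2 and between 37.4 and 42.9 CPM of Smap1, apart from all other pups.

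The low libraries were not the shallow ones. Their totals ran from 14053860 to 15534546 counts, inside the range of the others, and their B3gat2 counts were 428, 441, 424 and 476. The 95% Poisson interval of B3gat2 in female 2 of litter 1, which covers counting error only, was 27.6 to 33.5 CPM. Beside it, the high pup of litter 3 had an interval of 50.6 to 58.2 CPM from 807 counts. The Smap1 counts of the 4 pups were 603, 552, 546 and 618, and that of the high littermate in litter 3 was 1036.

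The low pups had similar levels relative to the median of all 24 pups. For B3gat2 they were at 53.5% (female 2 of litter 1), 52.4% (male 1 of litter 3), 51.7% (male 2) and 53.8% (female 1) of the median pup. Smap1 was at 58.1%, 50.6%, 51.3% and 53.9% in the same pups. The other 20 pups lay between 91.5% and 118% for B3gat2 and between 94.4% and 121% for Smap1, with no pup in between. The ratio of B3gat2 to Smap1 counts was 0.71, 0.80, 0.78 and 0.77 in the 4 pups, within the range of 0.66 to 0.88 over all pups. The balance between the 2 genes was therefore inside the usual range in the pups where both were low.

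The separation was measured as the largest step between neighbouring pups in the order of log2 CPM, with at least 2 pups on each side. On the log2 scale the step of B3gat2 was 0.75, from 4.93 to 5.68, with 4 pups below it. For Smap1 it was 0.72, from 5.40 to 6.11, also with 4 pups below. In each case the first value is that of the highest low pup and the second that of the lowest other pup. Among the 14348 genes that passed the filter, the step of B3gat2 ranked 95 and that of Smap1 ranked 104 from the largest. Among the 4287 genes with a mean level at least as high, B3gat2 ranked 7, and Smap1 ranked 6 among 3424. The 5 genes with the largest steps of all, from 3.34 to 5.61, were on chromosomes X, 3, 5, 7 and 5, and none of them had the same 4 lowest pups.

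The spread inside litters was larger than for most genes. Ranked over genes of all levels together, with no matching for level, it was not among the largest. The standard deviation of log2 CPM within litters was 0.28 for B3gat2 and 0.27 for Smap1, beside a median of 0.13 over all genes tested, and ranked 2405 and 2576 from the largest. The share of variance that lay within litters was 40.1% for B3gat2 and 40.6% for Smap1, below the median of 60.1% over all genes, so more of the members' variance than usual lay between litters. Litter 2 of the spontaneous labor condition had 73.8 ± 1.30 CPM of Smap1 (SD, n = 4 pups), whereas litter 3 had 46.2 ± 15.7 and litter 1 had 73.3 ± 20.7. For B3gat2 the corresponding values were 59.7 ± 3.87, 36.1 ± 12.2 and 52.1 ± 14.9 CPM. A mean of litter 1 or 3 thus falls where no pup of that litter lay.

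The 2 genes followed each other over pups. With litter means removed, Pearson's r of log2 CPM was 0.96 (Spearman's rho 0.87, 24 pups), and with litter means kept it was 0.96 (rho 0.72). Because the pups fall into separate levels, these r are set largely by the levels. Over the 20 pups above the step alone, r within litters was 0.60 (rho 0.58). Over the 12 saline pump pups, none of which was low, it was 0.75 (rho 0.70), and over the 12 spontaneous labor pups it was 0.98 (rho 0.92). Leaving out the 2 pups farthest from the B3gat2 median, males 1 and 2 of spontaneous labor litter 3, gave 0.96 (rho 0.84). The other low pups stayed in, so the levels still set this r. A weaker likeness between the members, the r of 0.60, remained inside the upper level. The pups share litters and libraries, so no p-value is given.

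**Figure D2:**
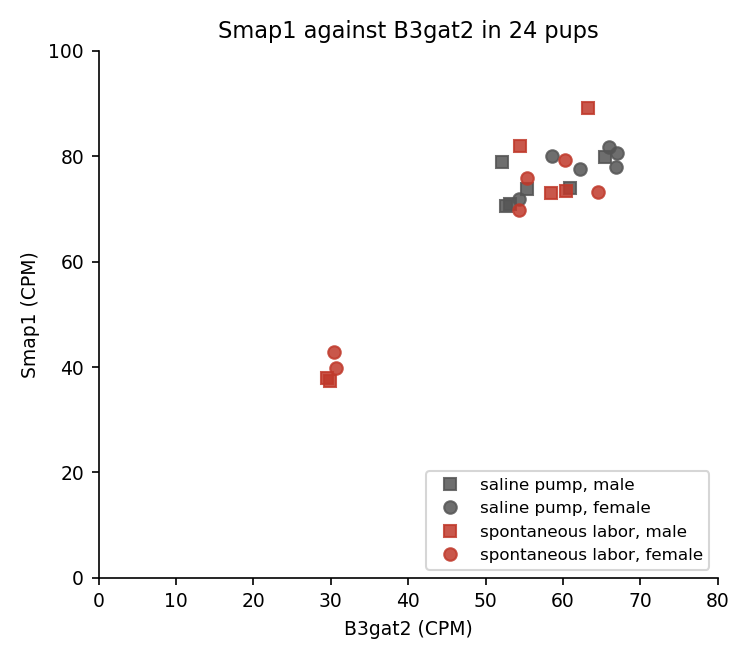
Smap1 (CPM) against B3gat2 (CPM) in 24 pups, coloured by condition, with squares for males and circles for females. A cloud of 4 pups at 29.4 to 30.6 CPM of B3gat2 is apart from the 20 pups at or above 52.1 CPM, and within the upper cloud r was 0.60 with litter means removed.

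The question whether these pups are low in the pair alone or in other genes too was asked over all genes. The same 4 pups were the 4 lowest in 10 of the 14348 genes tested, or 0.0697%, which include B3gat2 and Smap1. Of these 10 genes, 9 were on chromosome 9. The tenth, on chromosome 13 from 104089839 to 104101388, had a largest step of only 0.10. In 1 gene the same pups were the 4 highest.

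The 9 genes of chromosome 9 lie in a run from 28469367 to 35948938, a span of 7.48 Mb. Its largest single stretch without a tested gene is 5.03 Mb. The run has 11 tested genes in all, and the 2 others are described with it. Apart from the members, the symbols of these genes were not in hand, so they are named by their distance from the B3gat2 to Smap1 interval. On GRCr8, RefSeq lists Ogfrl1 as the protein-coding gene next before B3gat2, and by start LOC120094652 comes between B3gat2 and Smap1. Beyond Smap1 it lists Sdhaf4, Fam135a, Col9a1, Col19a1, Lmbrd1, Adgrb3, Spata31e1l1, Spata31e1, Phf3 and Ptp4a1 in that order. Those names were not paired with identifiers here.

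The gene at -333.1 kb, before B3gat2, had 7.47, 6.30, 7.64 and 7.66 CPM in the low pups, in the order female 2 of litter 1 and male 1, male 2 and female 1 of litter 3. It had 10.2 to 16.8 CPM in the other 20. The next gene on that side, at -1002.7 kb (27284840 to 27813498), showed no such separation. The 4 pups were at 113%, 102%, 106% and 100.4% of its median pup, in a range of 82.7% to 113% over all pups. On that side the run therefore ended between these genes, which are 655.9 kb apart.

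Beyond Smap1, the gene at 77.2 kb had 5.91, 6.16, 5.14 and 5.21 CPM in the 4 pups and 7.60 to 13.0 in the rest. At 89.8 kb the values were 24.8, 19.3, 18.0 and 20.1 CPM, below a range of 31.0 to 53.1. The levels did not overlap for either gene. At 252.2 kb a gene of low level had 1.14, 0.95, 0.63 and 0.90 CPM, from 9 to 16 counts, beside 1.23 to 2.79 CPM. The gene at 348.2 kb had 4.55, 3.59, 1.74 and 3.22 CPM and overlapped the other pups, which ran from 3.30 to 9.11. It is the first of the 2 genes in the run with other lowest pups, and 3 of its 4 lowest were the same.

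ENSRNOG00000012178, at 771.5 kb (29762573 to 29854651), had 22.1, 21.3, 22.0 and 19.6 CPM, whereas the other pups had 36.6 to 47.2. ENSRNOG00000012045, at 1105.2 kb (30096276 to 30829729), had 71.5, 66.0, 60.8 and 62.6 CPM beside 108 to 132. Their largest steps on the log2 scale were 0.76 and 0.62, beside the 0.75 and 0.72 of the members. After the stretch without tested genes, a gene at 6870.8 kb had 2.21, 3.25, 2.99 and 3.28 CPM and overlapped the others (2.59 to 5.01), and only 1 of its 4 lowest pups was the same. The gene at 6887.4 kb (35878437 to 35948938) again had 58.3, 56.3, 54.5 and 54.5 CPM, below the 84.8 to 117 CPM of the other 20 pups.

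In the 8 genes of the run with the same 4 lowest pups and a median of at least 5 CPM, the members included, the 4 pups lay between 44.1% and 66.5% of the median pup, and the others lay between 71.7% and 143%. Past the run, the next tested gene (36028652 to 36036214, 79.7 kb on, median 1.70 CPM) had the 4 pups at 37.7%, 63.8%, 36.8% and 75.9%, with 3 of them among its 4 lowest. The gene at 7872.1 kb had 1 of them among its 4 lowest. The far end of the run was therefore less sharp than the near one. No genotypes were used here, and what sets the levels apart was not tested.

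**Figure D3:**
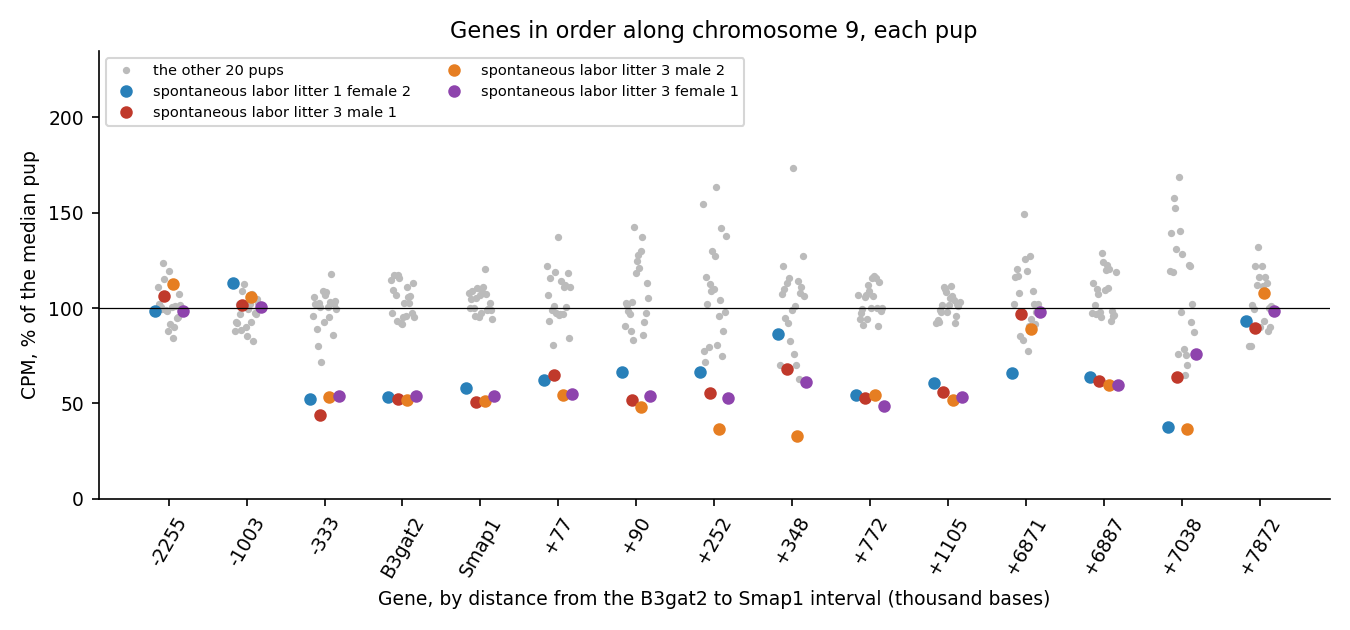
CPM as a percentage of the median pup (vertical) for 15 tested genes in order along chromosome 9 (horizontal, labelled by distance in kb), with the 4 low pups in colour and the other 20 in grey. The coloured points lie below the grey ones from the gene at -333 to that at +252, at +772, +1105 and +6887, and among them at -2255, -1003 and +7872.

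Likeness over pups led to the same stretch. The genes most like Smap1 within litters, after B3gat2, were those at 1105.2 (r = 0.95), 771.5 (0.93), 6887.4 (0.89) and 89.8 (0.88) kb beyond it. The same genes were the most like B3gat2 after Smap1, with r of 0.92 at 1105.2 kb, 0.90 at 89.8 kb, 0.89 at 771.5 kb and 0.83 at 6887.4 kb. Besides the members, 16 of 14346 genes, or 0.112%, had r of at least 0.7 with Smap1, of which 6 were on chromosome 9. At r of at least 0.8 there were 5 such genes for Smap1 and 4 for B3gat2, all on chromosome 9. The highest r with Smap1 on any other chromosome was 0.76. At the other end, r reached -0.76 with Smap1, for a gene on chromosome 19, and -0.79 with B3gat2, for a gene of low level on chromosome 9 near position 93903654. As for the pair itself, these r are over 24 pups of shared litters and are set mostly by the 2 levels.

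Among the 8 tested genes within 2 Mb, r with Smap1 ran from -0.16 to 0.95 with a median of 0.81, beside a median of 0.00 over all genes. Over the 20 pups above the step alone it ran from -0.52 to 0.42 with a median of 0.22. Inside the upper level, none of these neighbours reached the r of 0.60 that B3gat2 had with Smap1. The pair was chosen on its values in these pups and the neighbours by position, so the higher r of the pair cannot be read as particular to it.

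**Figure D4:**
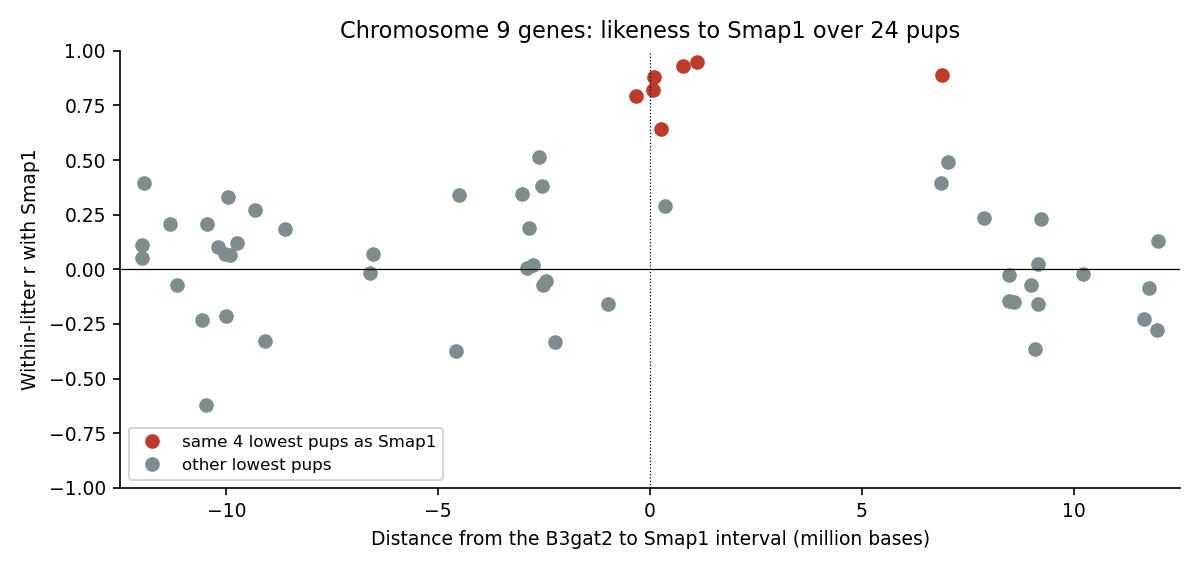
Within-litter r of log2 CPM with Smap1 over 24 pups (vertical) for each tested gene of chromosome 9 within 12 Mb, by distance from the B3gat2 to Smap1 interval in Mb (horizontal). Genes with the same 4 lowest pups (red) have r of 0.64 to 0.95 and lie from -333.1 to 6887.4 kb. Genes farther out on both sides have r of both signs, from -0.62 to 0.51.

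Since all low pups were in the spontaneous labor condition, the difference between conditions was read from the fit over all genes. Saline pump pups had a mean of 76.5 ± 4.02 CPM of Smap1 (SD, n = 12), and spontaneous labor pups had 64.5 ± 19.1. For B3gat2 the means were 59.5 ± 5.89 and 49.3 ± 14.5 CPM. As log2 fold changes, spontaneous labor minus saline pump, edgeR gave -0.55 for B3gat2 (SE 0.11) and -0.55 for Smap1 (SE 0.11), when 6 surrogate variables, which stand for unrecorded sources of variation, were in the model. Without surrogate variables they were -0.27 (SE 0.13) and -0.25 (SE 0.12). With surrogate variables but without spontaneous labor litter 3, which holds 3 of the 4 low pups, they were -0.13 (SE 0.10) and -0.11 (SE 0.10). These SEs take littermates as separate samples. With counts summed per litter and no surrogate variables, the log2 fold changes were -0.27 (SE 0.16) for B3gat2 and -0.25 (SE 0.15) for Smap1. The conditions overlapped, since 8 of 12 spontaneous labor pups were in the upper level.

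Of all 14348 genes, 1 (0.00697%) had an adjusted p of at most 0.05 by the quasi-likelihood test of edgeR (Benjamini-Hochberg adjustment over all genes). None of the 8 neighbours within 2 Mb did, with a smallest adjusted p of 0.186. No verdict is given for the members, which were chosen on their values in these pups. At an unadjusted p under 0.05, 7 of the 8 neighbours passed, all of them lower in the spontaneous labor condition, where 3.94% of all genes passed in that direction. The 8 are not independent of each other or of the members, since 6 of them had the same 4 lowest pups. These counts therefore restate the pattern for which the members were chosen, and they are no test of it. Their median log2 fold change was -0.43, beside 0.00 over all genes. DESeq2 and limma also called 0 of the 8, with 7 of 8 lower at an unadjusted p under 0.05, where 2.81% and 5.09% of all genes were. Without surrogate variables 1 of the 8 was lower at that level, where 4.91% of all genes were, and the median was -0.22.

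This difference rested mostly on spontaneous labor litter 3, and the calls among the neighbours also changed without litter 1 or 2 of that condition. Without spontaneous labor litter 3, 0 of the 8 neighbours had an unadjusted p under 0.05, where 5.87% of all genes were lower at that level. The median log2 fold change of the 8 was -0.02. Without spontaneous labor litter 2, 6 of the 8 had an adjusted p of at most 0.05 by edgeR, where 286 of all 14298 genes tested did. Without spontaneous labor litter 1 it was 1 of the 8, where 12 of 14307 genes did. With the counts summed per litter, none of the 8 had an unadjusted p under 0.05, where 0.878% of all genes were lower at that level. ENSRNOG00000012045 went from -0.46 (SE 0.12) to -0.06 (SE 0.09) without litter 3, and ENSRNOG00000012178 from -0.46 (SE 0.13) to -0.02 (SE 0.11). Both levels were present among the spontaneous labor pups and among littermates of litters 1 and 3. Each litter belonged to 1 condition, so the conditions can be compared only against the spread between 3 litters in each. What sets this difference was not tested.

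**Figure D5:**
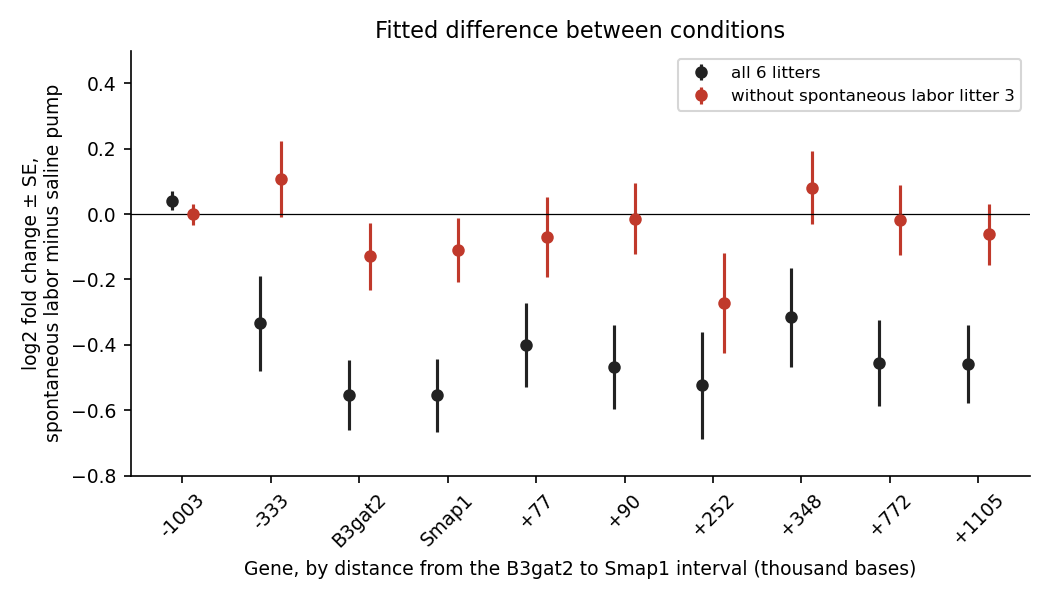
Log2 fold change, spontaneous labor minus saline pump, with its SE (vertical) for B3gat2, Smap1 and the 8 tested genes within 2 Mb (horizontal), from all 6 litters (black) and without spontaneous labor litter 3 (red). Members and 7 neighbours lie between -0.32 and -0.55 with all litters and between -0.27 and 0.11 without that litter. Both fits include surrogate variables, and their SEs take littermates as separate samples.

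Other genes of the pathways of the 2 members were sought by symbol, among them HNK-1 carriers, glycan linker enzymes, Arf GTPase-activating proteins, Arf GTPases, their exchange factors and clathrin coat genes. Of 54 symbols, 5 were found, including the members, because symbols were in hand only for genes that the study itself listed. That listing was selected by p in the same comparison of conditions, so the genes found are not an unselected sample of these pathways. Arfgap3, a GTPase-activating protein for Arf1 in the Golgi, had a log2 fold change of 0.10 (SE 0.05, adjusted p = 0.647 from edgeR). Psd2, an exchange factor for Arf6, had 0.03 (SE 0.03, adjusted p = 0.790 from edgeR). Clta, a clathrin light chain, had -0.03 (SE 0.02, adjusted p = 0.818 from edgeR). None of the 3 passed the threshold, by DESeq2 or limma either, and none had an unadjusted p under 0.05. The members' pathways were thus too thinly covered to be described beyond these genes.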

How the data were processed

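RNA-seq of right cerebral cortex was analysed in 24 pups. The labels gave each pup's condition, sex and number. The litter was read from identifiers in the study's sample list. That their middle number names the dam was inferred from the design and is not stated in the labels. The authors aligned reads to Rnor_5.0 with STAR 2.0.4b, used featureCounts to count uniquely aligned reads on each Ensembl gene and deposited these counts as they were. CPM (scaled to the library total) and RPKM (also to exonic length) were deposited by the authors as well. They served for levels and entered no test. Whether the counting used strand is not given in the sources used here. The genes lie on opposite strands 824 bases apart.

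Genes above 1 CPM in at least 4 samples were kept (14348). edgeR 4.0.16 (quasi-likelihood test, TMM factors, 6 surrogate variables from sva 3.50.0 with 20 resamples and seed 1, Benjamini-Hochberg adjustment, threshold 0.05) compared spontaneous labor with saline pump in R 4.3.3. limma 3.58.1, which the study used, and DESeq2 1.42.0 were alternatives. SEs came from the test statistic. Log2 CPM carried TMM factors and a prior count of 0.5. Likeness was Pearson's r of log2 CPM with litter means removed. The code was tested on simulated data, and Python 3.11.15, numpy 2.4.6, pandas 2.3.3, scipy 1.17.1 and matplotlib 3.10.9 were used.

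The text names the members, the nearest chromosome 9 genes (10 on each side, and all tested ones within 2 Mb), the genes most and least like each member, those with the largest steps, those with the same 4 lowest pups and the related genes with a symbol. The members and lists were chosen with earlier results of these data known. Totals per pup, 12170547 to 19260066 counts, set the counting precision. Litter, 3 per condition, limits the comparison of conditions, and p-values over pups take littermates as separate samples.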

Additional observations from a re-analysis of the deposited data

Results flagged for a closer look

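One pup stood far from its 3 littermates in both genes. In spontaneous labor litter 3, female 2 had a log2 CPM of B3gat2 of 5.75, and the gap to the nearest littermate took 0.93 of the litter's range. In the same pup Smap1 had a log2 CPM of 6.11, with a gap of 0.90 of the range. In that litter this pup was the high one, and its 3 littermates were low. Of 20 groups of 4 or 6 pups examined by litter or by condition and sex for the 2 genes, these were the 2 found. They are the same pup in 2 genes that follow each other, and both genes were chosen for such levels, so the count is a description and is not set against the 1 in 20 groups that chance gives. The low pup of spontaneous labor litter 1 did not pass the same criterion against its 3 littermates.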

How the results depend on the processing

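The number of genes called, 1 of 14348 with edgeR, was 0 without surrogate variables and 0 with counts summed per litter. It was 16 with DESeq2, 11 with limma's voomWithQualityWeights and 5 with sex as a covariate. Without the filter it was 8 of 21787 genes. With 1 litter left out it ran from 0 to 286, where 14280 to 14307 genes were tested. With a replicate block of the label number and sex it was 3, and the block gave log2 fold changes of -0.56 for B3gat2 and -0.56 for Smap1. Numbers in the labels name pups within a sex and pair no pups across litters, so that this block has no basis in the design, and it changed no call of the neighbours. The neighbours called, 0 of 8, ranged from 0 to 6 with 1 litter left out and were 0 in each other alternative, also within 5 Mb (0 of 19). The log2 fold changes of both members kept their negative sign in all 14 alternatives, from -0.69 to -0.13 for B3gat2 and from -0.67 to -0.11 for Smap1 with 1 litter left out. The within-litter r of the pair, 0.96, ranged from 0.93 to 0.97 with 1 litter left out and was 0.60 in the pups above the step alone. Deposited CPM without TMM factors or a prior count of 2 left the step of B3gat2 between 0.75 and 0.77 and that of Smap1 between 0.70 and 0.71, with 10 genes of the same 4 lowest pups. Without the filter 11 genes had them. The related genes called were 0 in each alternative. The cause of these changes was not tested. Surrogate variables were estimated anew for each set of pups. Depth limits the genes under about 5 CPM, whose low pups had as few as 9 counts.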
